A study of Homo sapiens with 6 samples.

Results

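Genes of cilium assembly and of the axoneme were followed in cells depleted of LIN28B and in cells labelled as induced to make more of it, all of them HEK293 cells, an established human embryonic kidney line. The group was set by gene symbol alone, through families such as IFT, BBS, RFX, DYNC2, TCTN, TMEM, CFAP, DNAH and SPAG, and the probe set with the highest mean stood for a gene that had several. It held 83 of the 11584 genes in the table. A symbol rule also takes in genes whose main work lies elsewhere, among them SPAG5 of the mitotic spindle, the signalling scaffold gene SPAG9, the cytoplasmic dynein light chain genes DYNLT1 and DYNLT3, and RFX5, a regulator of antigen presentation genes. A further probe set shared by RSPH10B and RSPH10B2 names both genes and was left out. Genes of these families that the deposited table leaves out were not analysed here.

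Total RNA of 6 samples was hybridised to Affymetrix Human Genome U133 Plus 2.0 arrays, with 2 arrays in each of 3 groups. All cells were HEK293 T-REx Flp-In cells that carry a doxycycline-inducible LIN28B transgene with a FLAG/HA tag, the mock-transfected controls included. The groups were mock transfected without induction, mock transfected with the transgene induced, and siRNA transfected without induction, where the siRNA was directed against LIN28B. No group given a non-targeting siRNA was analysed here, so the siRNA comparison holds the transfection of siRNA as well as the loss of LIN28B. Whether the 2 replicates of a group are separate cultures is not in the labels, and the p-values then speak of array-to-array spread only, part of which may be technical.

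The values are log2 expression values per probe set, and a difference of 1 is a 2-fold change. Array medians lay between 7.126 and 7.177. Across probe sets, the correlation was 0.9899 to 0.9937 between arrays of the same group and 0.97 to 0.9745 between siRNA and mock arrays. LIN28B, which checks the labels, read 10.02 and 9.85 in mock cells without induction, 10.15 and 10.11 with induction and 7.51 and 7.53 after siRNA. The siRNA label was borne out, with a log2 fold change of -2.42 (limma adjusted p = 5.02e-07). Between the mock groups the difference was 0.19 (95% interval 0.02 to 0.37, limma unadjusted p = 0.0349, adjusted p = 0.999). Both induced arrays read above both arrays without induction, but the rise was small, and this gene does not settle the induction label. Whether the probe set reads the transgene is not known here. "With induction" below therefore names the arrays by their label. Some of the epithelial and neuronal genes that HEK293 cells are known for read high, such as KRT18 (9.94 to 10.03 over the 6 arrays), EPCAM (10.31 to 10.76) and NEFL (9.92 to 10.63). Others, CDH1, PAX2, NEFM and STMN2, were not in the table. CHGB (5.26 to 5.60) and SYT1 (4.93 to 5.46) lay low on the mock arrays. After siRNA 4 of 6 genes listed as epithelial or kidney markers passed the test, counting the mesenchymal gene VIM (-0.18). So did 5 of 6 neuronal or adrenal markers, NCAM1 falling by 1.13 and CHGB rising by 0.98, and 0 of 3 fibroblast or blood markers, where 28.0% of all genes passed.

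A cilium is a microtubule-based projection that grows from a basal body, which is a centriole docked at the cell surface. Intraflagellar transport (IFT) carries its parts: IFT-B trains move outward, and IFT-A with the motor dynein-2 brings them back. The transition zone gates entry at the base, the BBSome carries membrane proteins, and motile cilia add axonemal dynein arms, radial spokes and a central pair. RFX transcription factors bind the X-box, a promoter motif of many ciliary genes, and RFX3 is a family member well known for switching on ciliary genes. HEK293 cells can form a primary cilium, the single immotile kind that serves in signalling.

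After LIN28B siRNA, RFX3 fell by more than any other of these genes, and with it fell parts of the transport machinery (IFT20, IFT57, WDR35, DYNLT2B), the cargo-release GTPase gene ARL3 and several CFAP genes. In all 19 genes fell, 4 rose and 60 did not pass at a limma adjusted p under 0.05 (Benjamini-Hochberg over all genes). The share that passed, 27.7% in either direction, was near the 28.0% of all genes. Falls made up a larger part of it: 22.9% of the cilium genes were called lower against 14.5% of all genes, and 4.82% were called higher against 13.5%. The median log2 fold change was -0.08, beside 0.01 for all genes. Over the 4 mock arrays together, 30 of the 83 genes had both siRNA arrays below every mock array and 11 had both above, or 36.1% and 13.3%, beside 26.0% and 27.1% of all genes. These shares are descriptions, and whether the group differs from other genes was not tested. In RNA of whole cultures, fewer cells with a transcript and less of it per cell cannot be told apart.

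The calls, like those of all genes, became fewer when either siRNA array was left out, which leaves that group with 1 array. Each called gene had both siRNA arrays outside the range of all 4 mock arrays, and 8 kept their call, at the same threshold and with no minimum fold, under each other scaling, filter, probe set choice, model and left-out array that could be run for them: CFAP97, IFT20, SPAG7, IFT57, DYNLT3, WDR35, ARL3 and RFX3. CFAP97, IFT20 and IFT57 are each read by an _s_at probe set, so the alternative without such sets could not be run for them. RFX3 was removed by the stricter filter, genes above 6 on 2 arrays.

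**Figure D1:**
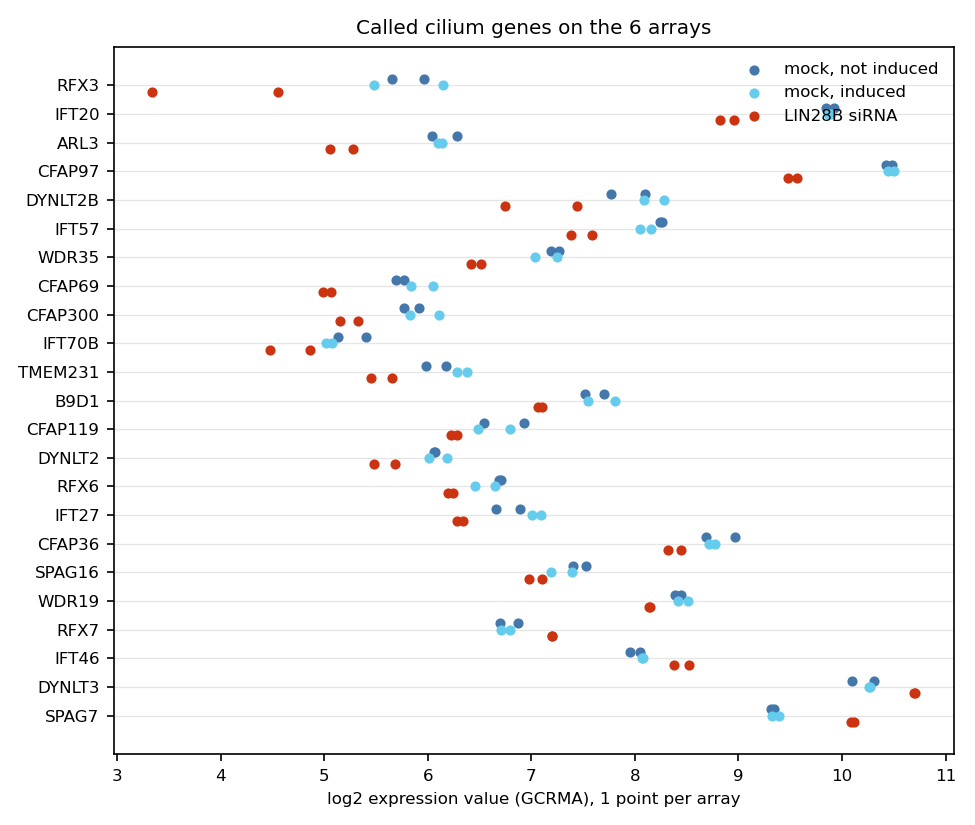
Log2 expression values of the 23 called cilium genes, 1 point per array, with genes ordered by their log2 fold change (LIN28B siRNA minus mock not induced). In the 19 genes that fell both siRNA arrays lie to the left of all mock points, and in SPAG7, DYNLT3, IFT46 and RFX7 both lie to the right.

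Of the 6 RFX genes, RFX3 and RFX6 fell, RFX7 rose, and RFX1, RFX2 and RFX5 did not pass, where 28.0% of all genes passed. RFX3 read 5.96 and 5.65 in mock cells without induction, 5.48 and 6.15 with induction, and 3.34 and 4.55 after siRNA. The siRNA arrays were both below all mock arrays but lay 1.21 apart, the widest gap among the RFX genes. The level after siRNA was 27.6% of that in mock cells (log2 fold change -1.86, SE 0.36, limma adjusted p = 0.00418). The log2 fold change was -1.26 without siRNA replicate 1 and -2.46 without replicate 2. RFX3 was the only gene of the 83 that fell at least 2-fold, where 1.29% of all genes did, and none rose by as much, where 0.906% of all genes did. The lowest value of any probe set was 2.85 on the array where RFX3 read 3.34 and 2.59 on the array where it read 4.55. RFX3 lay above 5 on the mock arrays only, so a table of genes above 5 on 2 arrays holds it only through them.

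RFX6, a factor known from pancreatic islet development, read 6.69 and 6.71 without induction, 6.46 and 6.65 with induction and 6.20 and 6.24 after siRNA. The siRNA values were below all mock values, with a difference of -0.48 from cells not induced (SE 0.12, limma adjusted p = 0.0175). RFX7 moved the other way, from 6.70 and 6.87 without induction and 6.79 and 6.71 with induction to 7.20 on both siRNA arrays. The difference was 0.41 (SE 0.11, limma adjusted p = 0.0242). Leaving out either siRNA array took the call from both RFX6 and RFX7.

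For the other RFX genes the 95% intervals included 0. RFX1 had a log2 fold change of 0.17 (95% interval -0.21 to 0.56) and RFX5 of 0.11 (95% interval -0.06 to 0.29). RFX2, the close relative of RFX3 that also acts on ciliary genes, read 5.07 and 5.16 without induction, 5.36 and 4.93 with induction and 4.88 and 5.38 after siRNA. Its groups overlapped, and the 95% interval of -0.48 to 0.51 is centred close to 0.

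**Figure D2:**
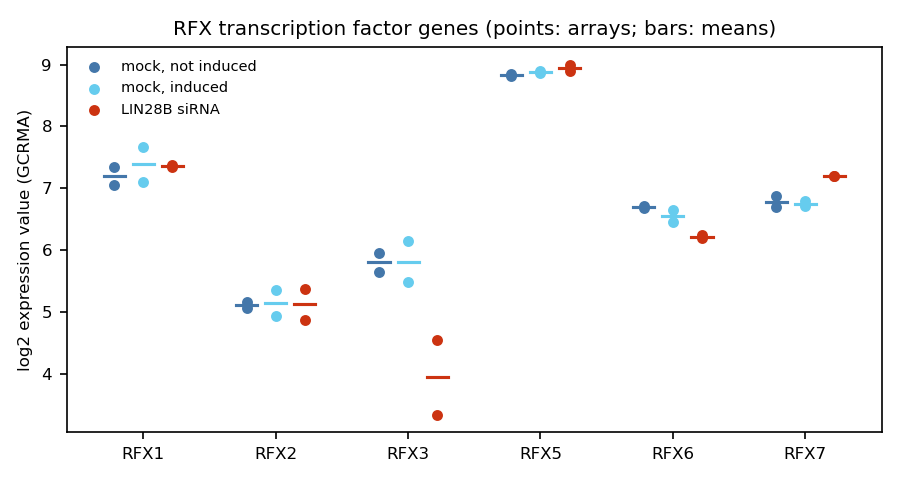
Log2 expression values of the 6 RFX genes on the 6 arrays, with points for arrays and bars for the group means of 2 arrays. RFX3 has its siRNA arrays at 3.34 and 4.55, below all mock arrays at 5.48 to 6.15, and RFX7 has both at 7.20, above mock arrays at 6.70 to 6.87.

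The X-box was searched for in the promoters of the group. The RefSeq promoter table (GRCh38.p14, 250 bases before to 50 after each start) held 69 of the 83 genes. The motif was spelled as GTTNCC, a spacer of 1 to 3 bases and GGNAAC, which reads the same on both strands. It stood in 8 of the 69 genes, or 11.6%, beside 1.13% of the 9476 genes of the arrays that the table holds and 0.718% of all 35116 promoters of the same length. The 8 sites are shown because they are the places where an RFX factor's letters stand beside these genes. Each is printed 5′ to 3′ on the gene's strand in a window of 30 bases, with the X-box in capitals.
SPAG16: gcaacatcGTTGCCACGGTAACtgggaggc
CFAP45: ggctagtgGTTGCCAAGGTAACgcgtcaac
ARL6: aagctcctGTTGCCAAGGGAACggtgcctg
TMEM107: cgtacacgGTTACCAAGGCAACtgggcggt
TCTN3: cactgacgGTTGCCAGGCAACggaggcacg
IFT122: catgtacGTTGCCAGGGGTAACgcaggtag
TCTN1: ctgtcgcgGTTGCCGGGCAACgcgctgtcc
IFT70A: gttgccctGTTGCCGTGGTAACcgcacgca

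The windows lie at chr2:213284272-213284301 (plus strand) for SPAG16, chr1:159900163-159900192 (minus) for CFAP45, chr3:97764726-97764755 (plus) for ARL6, chr17:8176404-8176433 (minus) for TMEM107 and chr10:95694121-95694150 (minus) for TCTN3. In these 5 genes the motif lies before the start, 184, 19, 24, 45 and 215 bases upstream in that order. The IFT122 window at chr3:129440205-129440234 (plus) spans the start, and those of TCTN1 at chr12:110614121-110614150 (plus) and IFT70A at chr2:177618719-177618748 (minus) hold the motif just past it.

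Of the 19 genes that fell 4 have no promoter in the table and could not be searched. SPAG16 was the only one of the 8 genes with an X-box that was called, and the median log2 fold change was -0.09 for the 8 genes and -0.06 for the other 61. Over all genes of the arrays with the motif, 19 of 107 were called lower and 9 higher, where 14.5% and 13.5% of all genes were. What part RFX3 has in the falls was not tested. A looser search, chosen after the first, took a single arm of the motif, GTTGCC, on either strand, which every X-box above holds on at least 1 strand. It stood in 32 of the 69 genes, or 46.4%, beside 17.1% of the genes of the arrays and 12.2% of all promoters. Of the 32 genes 6 fell and 3 rose, and of the 37 without it 9 fell and 1 rose, with a median of -0.07 in both. Over all genes of the arrays with the arm, 256 of 1616 were called lower and 219 higher. Whether the changes depend on the arm was not tested. A match is a description of letters and shows no binding.

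Upstream stretches of 250 bases are printed for 3 genes that fell and carry the letters: SPAG16, which holds the full X-box, and CFAP97 and CFAP36, which hold the arm. Capitals mark the X-box in SPAG16 (chr2:213284214-213284463, plus strand) and the arm in CFAP97 (chr4:185204001-185204250, minus), where it reads GGCAAC on the gene's strand, and CFAP36 (chr2:55519468-55519717, plus).
SPAG16: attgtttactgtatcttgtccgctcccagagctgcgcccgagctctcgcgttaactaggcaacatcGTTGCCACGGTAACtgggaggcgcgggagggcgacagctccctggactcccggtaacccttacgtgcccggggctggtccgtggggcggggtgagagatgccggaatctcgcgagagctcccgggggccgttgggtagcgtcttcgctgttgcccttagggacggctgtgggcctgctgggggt
CFAP97: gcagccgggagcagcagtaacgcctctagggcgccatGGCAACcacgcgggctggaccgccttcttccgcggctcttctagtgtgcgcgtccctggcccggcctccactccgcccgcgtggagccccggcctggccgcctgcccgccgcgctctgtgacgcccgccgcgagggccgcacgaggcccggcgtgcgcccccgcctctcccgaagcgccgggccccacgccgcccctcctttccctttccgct
CFAP36: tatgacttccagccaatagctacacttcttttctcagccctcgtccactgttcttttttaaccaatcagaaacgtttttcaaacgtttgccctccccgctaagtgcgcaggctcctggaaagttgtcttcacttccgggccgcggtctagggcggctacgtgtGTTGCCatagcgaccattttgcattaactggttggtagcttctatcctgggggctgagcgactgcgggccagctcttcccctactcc

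**Figure D3:**
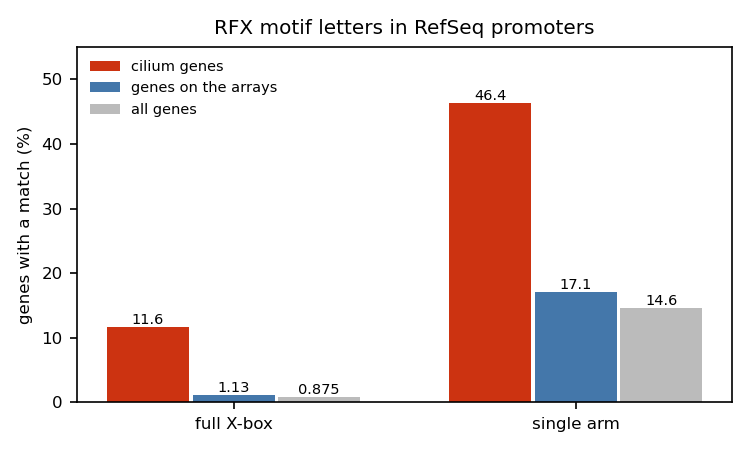
Percent of genes whose RefSeq promoter holds the full X-box or its single arm GTTGCC, for the 69 cilium genes, the 9476 genes of the arrays and all 27305 genes of the promoter table. The cilium genes stand at 11.6% and 46.4%, above 1.13% and 17.1% for the genes of the arrays.

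Of the 15 IFT-B genes 4 fell, 1 rose and 10 did not pass, where 28.0% of all genes passed. Their median log2 fold change was -0.08. IFT20, the subunit that also works at the Golgi apparatus, read 9.85 and 9.92 without induction, 9.87 and 9.89 with induction and 8.82 and 8.96 after siRNA. The 4 mock arrays lay close together and far above the siRNA arrays, with a difference of -0.99 (SE 0.07, limma adjusted p = 3.76e-05). IFT57, another subunit of the peripheral part of the complex, fell from 8.24 and 8.26 to 7.38 and 7.59, with 8.05 and 8.16 on the induced arrays. That is 58.8% of the level in mock cells (log2 fold change -0.77, SE 0.10, limma adjusted p = 0.000647). Of the other peripheral subunits among the 15 genes, IFT80 read 8.10 and 7.85 without induction, 8.16 and 7.97 with induction and 7.60 and 7.68 after siRNA and missed the threshold (-0.33, limma adjusted p = 0.055), and IFT172 had -0.19 (95% interval of -0.47 to 0.10). CLUAP1 and TRAF3IP1, peripheral subunits that the symbol rule leaves out, had -0.03 and -0.22 and did not pass.

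In the IFT-B core, changes went both ways. IFT27, a small GTPase subunit, read 6.66 and 6.89 without induction, 7.01 and 7.09 with induction and 6.28 and 6.34 after siRNA, a difference of -0.46 (SE 0.13, limma adjusted p = 0.0214). IFT25, which forms a pair with IFT27, had -0.15 and did not pass. IFT46, known as an adaptor for outer dynein arms, rose from 8.05 and 7.95 to 8.38 and 8.52, above the induced arrays at 8.07 and 8.08, a difference of 0.45 (SE 0.09, limma adjusted p = 0.00554). IFT52, its neighbour in the core, had 0.33 and did not pass (limma adjusted p = 0.062).

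IFT70B read 5.40 and 5.13 without induction, 5.02 and 5.08 with induction and 4.48 and 4.86 after siRNA. Its log2 fold change of -0.59 lay just inside the threshold (limma adjusted p = 0.0482), and its call was lost in 9 of the alternatives. IFT70A and IFT70B are near-identical copies, and a probe set of either could also read the other. IFT70A had -0.08 (95% interval -0.63 to 0.48). The subunits IFT22, IFT56, IFT74, IFT81 and IFT88 had log2 fold changes between -0.06 and 0.14 and did not pass.

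Among the 5 IFT-A genes, WDR35 and WDR19 fell and IFT43, IFT122 and IFT140 did not pass, where 28.0% of all genes passed. WDR35 read 7.27 and 7.19 without induction, 7.25 and 7.04 with induction and 6.42 and 6.51 after siRNA. The groups were well apart, with a difference of -0.76 (SE 0.12, limma adjusted p = 0.00147). WDR19 moved less, from 8.45 and 8.39 to 8.15 and 8.14, with 8.51 and 8.42 on the induced arrays (log2 fold change -0.28, limma adjusted p = 0.0341). IFT122 and IFT43 had 0.01 and 0.08, and IFT140 had -0.19 with a wide 95% interval of -0.71 to 0.33.

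Light chains that dynein-2 shares with cytoplasmic dynein, such as DYNLT1 (-0.06) and DYNLT3 (0.50, called higher), are counted below with the last 6 genes. Of the 5 genes counted here as dynein-2, only the light chain gene DYNLT2B passed, beside 28.0% of all genes. It read 8.10 and 7.77 without induction, 8.09 and 8.28 with induction and 6.75 and 7.44 after siRNA. Both siRNA arrays were the lowest, but they lay 0.69 apart, and the difference of -0.84 (SE 0.20, limma adjusted p = 0.0114) was -0.50 without siRNA replicate 1 and then did not pass. DYNC2H1, the heavy chain that generates force, had -0.37 (95% interval -0.73 to -0.02, limma adjusted p = 0.111). The intermediate chain genes DYNC2I1 and DYNC2I2 and the light intermediate chain gene DYNC2LI1 had -0.01, 0.01 and -0.06.

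None of the 8 genes of the BBSome, its chaperonin-like assembly factors and its recruiting GTPase ARL6 was called by limma, and of them BBS7 alone had an unadjusted p under 0.05, as 39.4% of all genes did. BBS7, a BBSome subunit, read 7.04 and 6.46 without induction, 6.96 and 6.87 with induction and 6.02 and 6.36 after siRNA. The siRNA arrays were the lowest, but the mock arrays without induction differed by 0.58, and the log2 fold change of -0.56 did not pass (limma adjusted p = 0.0536). The subunits BBS1, BBS2 and BBS4 had 0.06, 0.01 and -0.04, each with a 95% interval within 0.5 of 0. BBS9 had 0.20, BBS10 and BBS12, the chaperonin-like genes, had 0.001 and -0.17, and ARL6 had -0.11.

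Of 16 genes of the transition zone, basal body and cargo release, 3 fell and 13 did not pass, where 28.0% of all genes passed. ARL3, the GTPase that releases lipid-modified proteins inside the cilium, read 6.04 and 6.28 without induction, 6.14 and 6.10 with induction and 5.28 and 5.06 after siRNA. It was reduced to 50.3% of the mock level, a log2 difference of -0.99 (SE 0.15, limma adjusted p = 0.00148). B9D1 and TMEM231, both members of the transition zone module mutated in Meckel and Joubert syndromes, fell by similar amounts. B9D1 read 7.70 and 7.52, then 7.81 and 7.55 with induction, and 7.10 and 7.06 after siRNA (log2 fold change -0.53, limma adjusted p = 0.00864). TMEM231 read 6.18 and 5.98, then 6.28 and 6.38 with induction, and 5.45 and 5.65 after siRNA (log2 fold change -0.53, limma adjusted p = 0.0226).

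Other genes of the same module did not pass. TMEM216 had -0.22 (limma adjusted p = 0.0641), CC2D2A -0.37 with a 95% interval of -0.85 to 0.12, and TMEM67, TMEM107 and TMEM237 lay between -0.18 and -0.11. The tectonic genes TCTN1, TCTN2 and TCTN3 had -0.11, 0.08 and -0.05, and B9D2, the partner of B9D1, had 0.10. The nephronophthisis gene NPHP4 had -0.07 and the kinase gene NEK8 -0.04. At the basal body, OFD1 had 0.22 (limma adjusted p = 0.0823) and KIAA0586 -0.11.

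Of 22 axonemal and CFAP genes 6 fell and 16 did not pass, where 14.5% of all genes were called lower and 13.5% higher. Their median of -0.17 was the lowest of the larger groups in this comparison. Against the induced mock cells it was -0.10, beside -0.17 for IFT-B and -0.11 for the transition zone group. CFAP97 had the smallest p of the whole group: it read 10.48 and 10.43 without induction, 10.50 and 10.44 with induction and 9.48 and 9.57 after siRNA. The mock arrays spanned 0.07, and the siRNA level was 52.4% of the mock level (log2 fold change -0.93, SE 0.06, limma adjusted p = 2.59e-05). CFAP36, whose protein binds ARL3, fell from 8.97 and 8.69 to 8.32 and 8.45, with 8.77 and 8.72 on the induced arrays (log2 fold change -0.44, limma adjusted p = 0.0107). ARL3 and CFAP36 thus both fell, although no test here links them.

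CFAP69, a gene of the sperm flagellum, read 5.77 and 5.69 without induction, 6.05 and 5.84 with induction and 4.99 and 5.07 after siRNA (log2 fold change -0.70, limma adjusted p = 0.00764). CFAP300, which takes part in dynein arm assembly, read 5.77 and 5.92, then 5.83 and 6.11 with induction, and 5.15 and 5.33 after siRNA (log2 fold change -0.60, limma adjusted p = 0.0202). Both lie low on this scale. SPAG16, a protein of the central pair, fell from 7.53 and 7.40 to 6.98 and 7.10, with 7.39 and 7.19 on the induced arrays (log2 fold change -0.42, limma adjusted p = 0.0233). CFAP119 lay near the threshold: it read 6.54 and 6.93, then 6.49 and 6.79 with induction, and 6.22 and 6.28 after siRNA (log2 fold change -0.49, limma adjusted p = 0.0469), and without mock replicate 2 (not induced) it had -0.29 and did not pass.

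None of the axonemal dynein heavy chain genes passed. DNAH14 had a log2 fold change of 0.24 and DNAH3 of -0.04. DNAH6 had 0.48 (limma adjusted p = 0.0698), but it lay above 5 on a single mock array, so a table of genes above 5 on 2 arrays holds it only through its siRNA arrays. SPAG1, a factor that helps assemble dynein arms, had -0.23, the dynein arm assembly gene CFAP298 had -0.08, and the radial spoke gene RSPH3 had 0.03. CFAP20 and CFAP45, parts of the microtubule doublet, had 0.09 and 0.21, and CFAP68 had 0.25. The remaining genes CFAP73, CFAP100, CFAP157, CFAP206, CFAP263, CFAP410 and CFAP418 lay between -0.33 and 0.36.

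In the last 6 genes, which the symbol rule brought in and whose known work is mostly outside the cilium, the largest rises of the group were found. SPAG7 read 9.34 and 9.31 without induction, 9.39 and 9.32 with induction and 10.12 and 10.09 after siRNA. The arrays of each group lay close together, and SPAG7 rose by 0.78 on the log2 scale (SE 0.06, limma adjusted p = 7.19e-05). DYNLT3, a light chain of cytoplasmic dynein, rose from 10.31 and 10.10 to 10.71 and 10.70, with 10.27 and 10.26 on the induced arrays (log2 fold change 0.50, limma adjusted p = 0.000906). DYNLT2, a testis-expressed light chain, fell from 6.07 and 6.06 to 5.48 and 5.68, with 6.01 and 6.19 on the induced arrays (log2 fold change -0.49, limma adjusted p = 0.0319). DYNLT1, SPAG5 and SPAG9 had -0.06, 0.20 and -0.02 and did not pass. Without these 6 genes and the RFX genes, 16 of 71 fell and 1 rose, beside 14.5% and 13.5% of all genes. The genes left out held the rises of SPAG7, DYNLT3 and RFX7 and the falls of RFX3, RFX6 and DYNLT2.

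**Figure D4:**
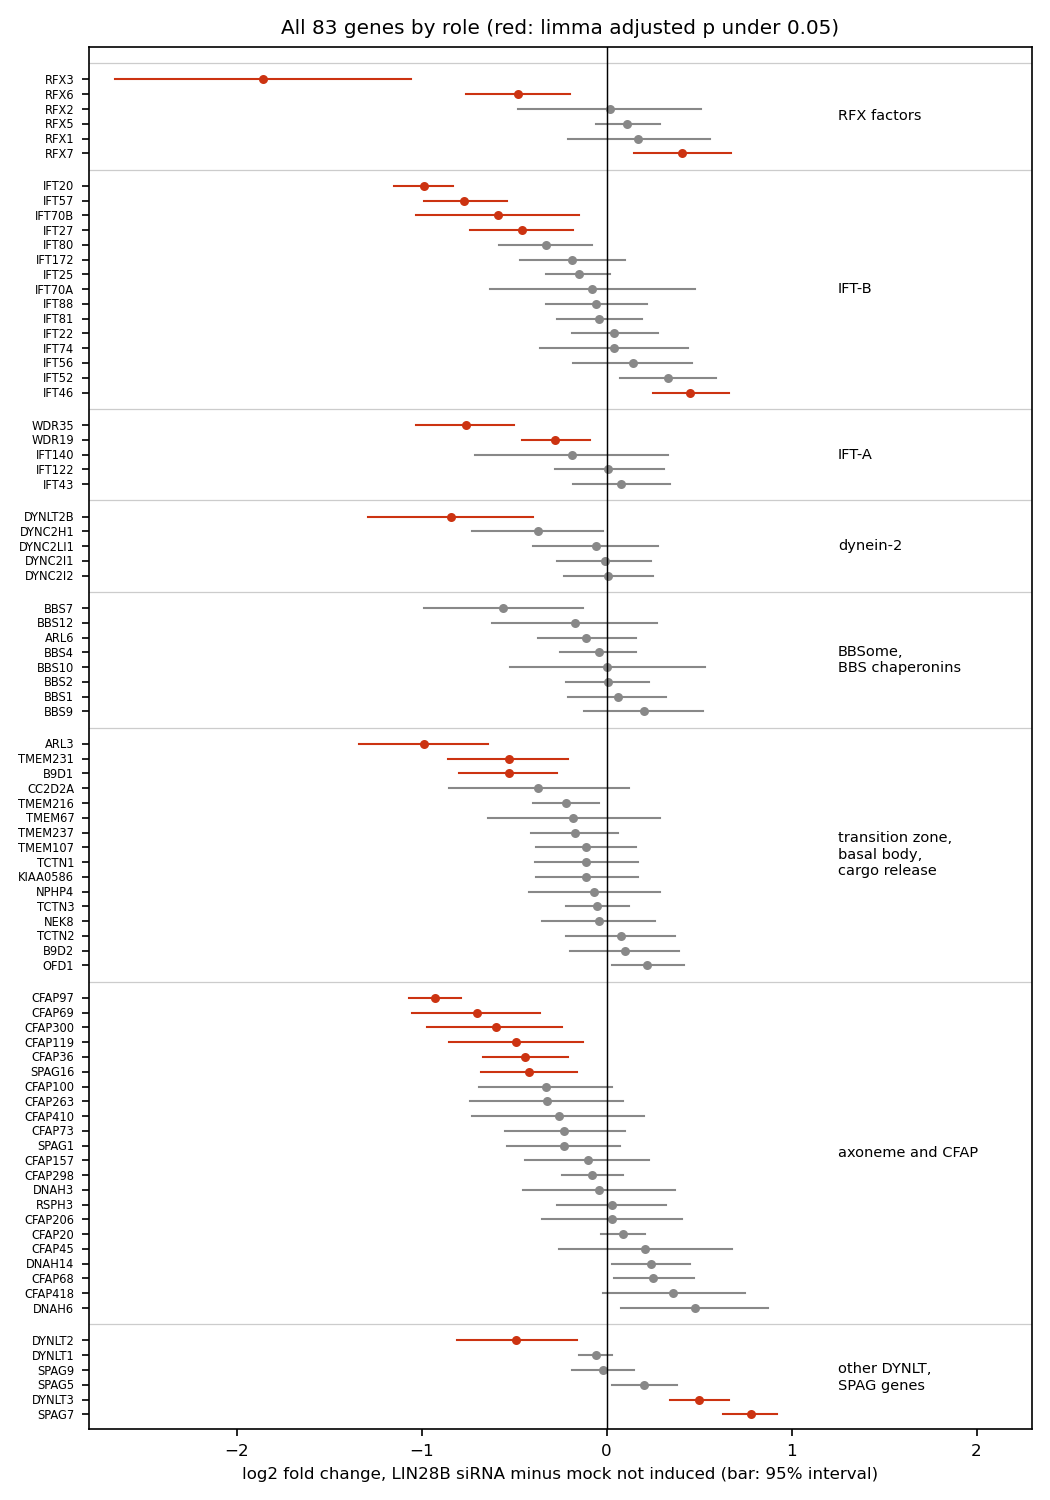
Log2 fold change of all 83 genes (LIN28B siRNA minus mock not induced) grouped by role, with 95% intervals from limma and called genes in red. Red points lie to the left of 0 except for RFX7, IFT46, DYNLT3 and SPAG7, and the BBSome genes hold none.

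The second comparison set mock cells labelled as induced against those not induced, which on LIN28B itself differed by 0.19. Of the 83 genes limma called 0, as it did of all genes (0.00%), and 3 had an unadjusted p under 0.05, or 3.61% beside 2.97% of all genes. BBS9 and TMEM67 had the smallest p. BBS9 read 5.46 and 5.52 without and 5.93 and 5.83 with induction, a log2 fold change of 0.39 (limma adjusted p = 0.999), and TMEM67, a transition zone receptor, read 6.12 and 6.29 without and 5.88 and 5.41 with induction, or -0.56 (limma adjusted p = 0.999). The third was SPAG5 with -0.20. RFX3 had 0.01 between the mock groups. For 62 of the 83 genes the 95% interval lay within 0.5 of 0, and for 82 within 1, so changes above 2-fold were outside the interval of all but 1 gene.

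Against the induced mock cells, siRNA cells gave 23 called cilium genes, or 27.7% beside 28.4% of all genes. Of these 17 were lower and 6 higher, or 20.5% and 7.23%, beside 14.5% and 14.0% of all genes. At least 2-fold lower were RFX3 and DYNLT2B, where 1.42% of all genes were, and 0 were 2-fold higher, where 0.863% of all genes were. This comparison shares its siRNA arrays with the first and is given as values only. RFX3 had -1.87, IFT20 -0.99, CFAP97 -0.95, ARL3 -0.95, IFT57 -0.62 and WDR35 -0.68, beside -1.86, -0.99, -0.93, -0.99, -0.77 and -0.76 in the first. DYNLT2B had -1.09 and IFT27 -0.74, where the first comparison gave -0.84 and -0.46. Here BBS7 (-0.72, limma adjusted p = 0.019), IFT80 (-0.42), CFAP68 (0.33) and SPAG5 (0.41, limma adjusted p = 0.00387) passed. RFX6 (-0.34, limma adjusted p = 0.0694), SPAG16 (-0.25), CFAP119 (-0.39) and IFT70B (-0.38) did not.

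Other ciliary genes, taken from lists by role rather than from the symbol rule, were also counted in the siRNA comparison. Their counts are to be read against all genes, of which 14.5% were called lower and 13.5% higher. Of 46 centriole and basal body genes 7 fell and 3 rose, with a median of -0.07. PIBF1, a protein of centriolar satellites, fell by 0.99, SSX2IP by 0.59 and CEP19, which recruits IFT-B, by 0.57 and CEP20 by 0.54, and the centrin gene CETN3 rose by 0.38. CCP110, a cap protein that holds back cilium growth, fell by 0.48. Of 55 genes of the transition zone and of ciliary trafficking 10 fell and 6 rose, with a median of -0.07, and their called share too was near the 28.0% of all genes. RPGRIP1L, a scaffold of the transition zone, read 6.52 and 6.07 without induction, 6.39 and 6.37 with induction and 5.25 and 5.20 after siRNA and fell by 1.08 (SE 0.17, limma adjusted p = 0.00144). The exocyst gene EXOC5 rose by 0.93, CCDC92 fell by 0.72 and ANKS6, a partner of NEK8, fell by 0.59. The kinesin-2 genes KIF3A and KIFAP3, whose motor drives outward transport, rose by 0.40 and 0.44. KIF3B of the same motor had 0.23 and did not pass (limma adjusted p = 0.075).

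Of 16 further genes of motile cilia 4 fell and 3 rose, with a median of -0.13, beside 14.5% and 13.5% of all genes. MNS1, a protein inside the microtubule doublet, read 7.74 and 7.40, then 7.58 and 7.50 with induction, and 6.35 and 6.07 after siRNA and fell by 1.36 (SE 0.14, limma adjusted p = 0.000198). NME5 of the radial spoke fell by 0.92, LRRC56 rose by 1.01 and the dynein arm assembly gene DNAAF3 rose by 0.47. RUVBL1, which helps dynein arm assembly and has many other roles, fell by 0.39. Of 25 genes of cilium disassembly and tubulin modification 7 fell and 1 rose, with a median of -0.07, beside the same 14.5% and 13.5%. The tubulin ligase genes TTLL1, with siRNA arrays as far apart as 3.75 and 4.85, and TTLL7 fell by 1.07 and 0.91, the deglutamylase gene AGTPBP1 by 0.63 and CDC14B by 0.52, and the folding factor gene TBCC rose by 0.46.

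Of 9 other regulators of ciliary transcription 2 fell and 1 rose, where 28.0% of all genes were called. MYB, which acts early in multiciliated cells and in blood cells, read 7.69 and 7.46, then 7.59 and 7.43 with induction, and 6.64 and 6.87 after siRNA and fell by 0.81. E2F5, which also acts there, fell by 0.60, and ANKRA2 rose by 0.55. FOXJ1, the defining factor of motile cilia, read 4.63 to 5.07 over the 6 arrays and did not pass (-0.31, limma adjusted p = 0.247). Of 12 markers of multiciliated cells 5 were in the table, of which MYB fell and TPPP3 rose. TPPP3 read 4.34 to 4.90 on the mock arrays and lay above 5 only after siRNA, so it is in the table through the group where it is high. A mean over the 5 is not read, since TPPP3 raises it on the siRNA arrays. CCNO read 5.75 to 5.91 on the mock arrays and 5.52 and 5.30 after siRNA and did not pass (-0.43, limma adjusted p = 0.0616). CAPS had 0.21 and did not pass (limma adjusted p = 0.327). MCIDAS, GMNC and TP73 were not analysed here.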

How the data were processed

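The deposited values are log2 expression values per probe set, which the authors made with affy and GCRMA, per the submitters' processing notes, which name no version. Each array took 2 µg of RNA, and doxycycline is stated, for crosslinking only, as 250 ng/ml over 15 to 20 h. The base of the logarithm was taken as 2, which GCRMA returns. The table holds 13008 probe sets, part of the array. All but 1 (13007) lay above 5 on at least 2 arrays, so a gene low on every array was not analysed here. A gene at or under 5 on all mock arrays is in the table only if both siRNA arrays read it above 5. A gene at or under 5 on both siRNA arrays, such as RFX3, IFT70B, HHIP or TTLL1, is there only through mock arrays. The sources used here do not say how the probe sets were chosen. If differences between arrays played a part, the called share of all genes here is not that of the whole array.

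Probe sets with 1 symbol (11719; 609 had several, 680 none) were named through the platform annotation, with 11578 of 11584 genes updated to RefSeq (GRCh38.p14). Of the 83 genes 82 had a single probe set, and 31 were read by a set ending in _s_at, _x_at, _a_at or _g_at, which can pick up related transcripts. The test was limma 3.58.1 (R 4.3.3; lmFit, eBayes with an intensity trend), fitted as 1 model of 3 groups over 6 arrays, with 3 residual and 6.73 prior degrees of freedom, and called at a two-sided adjusted p under 0.05. The fit was tested on simulated data. No gene was removed by a filter. The number of arrays limits the precision.

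The named genes were all RFX genes, every called gene, genes of smallest p in groups without a call, and up to 4 called genes of each list; further ones, chosen after their values were seen, complete the account of each role. Members and lists were chosen with earlier results of these data known. Alternatives covered scaling, filter, probe sets, variance model, samples in the fit, a replicate block and each array left out.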

Additional observations from a re-analysis of the deposited data

How the results depend on the processing

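Centring the arrays gave 7 cilium genes higher and 17 lower in the siRNA comparison, and testing against the mean of both mock groups gave 8 higher and 22 lower. With a minimum of 2-fold 1 gene was called, which was lower, and 0 higher, with 255 of all genes; against induced cells it was 2, both lower, and 0 higher, with 265 of all genes. Without probe sets ending in _s_at, _x_at or _a_at 53 cilium genes were left; 2122 of all genes were called in the siRNA comparison and 2167 against induced cells, where 11 cilium genes were lower. Leaving out each array in turn gave 9 to 21 cilium genes called in the siRNA comparison (6 to 17 lower, 2 to 5 higher; 1664 to 3143 of all genes). Against induced cells it gave 14 to 27 (11 to 20 lower, 3 to 7 higher; 1702 to 3951 of all genes), and for induction 0 cilium genes and 0 to 1 of all genes. A group left with 1 array borrows its spread from the other groups. RFX2 (0.02) had -0.03 without mock replicate 1 (not induced), -0.24 without siRNA replicate 2, 0.27 without siRNA replicate 1 and -0.0008 against both mock groups; the cause was not tested. The X-box stood in 5 genes in the 250 bases before the start, in 5 with a spacer of 2 bases, and the single arm in 32; these alternatives, and leaving out genes with a mock mean under 6 (15 lower, 4 higher), were chosen after seeing the data.

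Apart from the 2-fold minimum, which left RFX3 alone, 15 of the 23 called genes lost their call in at least 1 alternative. Without siRNA replicate 1 these were B9D1, CFAP36, CFAP69, CFAP119, CFAP300, DYNLT2, DYNLT2B, IFT27, IFT70B, RFX6, RFX7, SPAG16, TMEM231 and WDR19. Without siRNA replicate 2 they were B9D1, CFAP119, DYNLT2, IFT27, IFT46, RFX6, RFX7, SPAG16 and WDR19. Without mock replicate 1 (not induced) DYNLT2, DYNLT2B, IFT70B, RFX7, SPAG16, TMEM231 and WDR19 lost it, and without replicate 2 CFAP119, CFAP300, DYNLT2, IFT27 and IFT70B. CFAP119, IFT70B and WDR19 also lost it without either induced array. Whether the replicate numbers pair the samples was not settled. Deviations of same-numbered arrays correlated at 0.181 between the mock groups. With the siRNA arrays they correlated at -0.0568 for mock not induced and 0.0155 for mock induced. With the replicate number as a block 24 cilium genes were called (19 lower, 5 higher), with 3422 of all genes; against induced cells 24 (18 lower, 6 higher), with 3491 of all genes, and for induction 0.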

Other observations

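Genes of neighbouring systems were counted in the same way, beside 14.5% of all genes called lower and 13.5% higher. Of 27 genes of cytoplasmic dynein 1 and dynactin, the motor that walks on cytoplasmic microtubules and to which DYNLT3 belongs, 6 rose and 1 fell in the siRNA comparison, with a median log2 fold change of 0.14 beside 0.01 for all genes. The dynactin subunit gene DCTN3 rose by 0.48, the cargo adaptor gene BICD2 by 0.40, the capping protein gene CAPZA2 by 0.37 and the lissencephaly gene PAFAH1B1 by 0.37, and the light chain gene DYNLL1 fell by 0.26. DCTN3 read 10.53 and 10.49 without induction, 10.40 and 10.44 with induction and 10.97 and 11.02 after siRNA, with the groups apart (limma adjusted p = 0.000222).

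Of 22 genes of hedgehog signalling, which vertebrate cells run through the primary cilium, 1 rose, 1 fell and 20 did not pass, with a median of -0.04, where 28.0% of all genes were called. HHIP, a membrane protein that binds hedgehog ligands, read 5.68 and 5.93 without induction, 5.65 and 5.58 with induction and 4.32 and 4.54 after siRNA and fell by 1.37 (SE 0.17, limma adjusted p = 0.000484). PRKAR1A, a regulatory subunit of protein kinase A, rose by 0.54.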
